A study of Zea mays with 2182 samples.

Results

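The cells described here are 58 single cells of maize anthers that were rich in transcripts of the 24PHAS loci. They were chosen by that content alone: among cells of anthers 1.25, 1.5 and 1.75 mm long with at least 500 unique molecular identifiers (UMIs, one for each captured transcript molecule), the high cells were those in which the rows named 24PHAS made up at least 1% of all UMIs. Of 420 such cells, 58 were high (13.8%, 95% exact binomial interval 10.7 to 17.5%), 31.7% held some 24PHAS UMIs but less than 1%, and 54.5% held 0 and are the comparison cells. The whole series held 2182 cells. All cells came from untreated greenhouse plants of W23, a fertile inbred line, so both classes share genotype and treatment. Anther cells were fixed, enzymatically separated, dispensed singly and sequenced from their polyadenylated 3' ends by CEL-Seq2. A set (the date-like word opening a cell's title), a set number and a length together are called a pool. High and comparison cells occurred side by side in 9 of 14 pools, with 58 and 170 cells, and values are sums over the cells of a class in a pool. The labels do not say which plant a cell came from, so the spread between pools may be partly technical. Fewer transcripts in a sum could reflect fewer expressing cells or less RNA in each, and the sums alone cannot tell these apart. Shares of cells with a UMI are given for some genes, and they also depend on depth and on the level in each cell.

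In grasses, 24PHAS loci are transcribed into long noncoding precursors that the microRNA miR2275 directs to be cut. RNA-dependent RNA polymerase RDR6, helped by the SGS3 protein, copies the fragments, and the nuclease DCL5 dices the duplexes into regularly spaced small RNAs called phasiRNAs, after whose length the loci are named. In maize these phasiRNAs appear around the start of meiosis, and the tapetum, the innermost wall layer that nourishes the meiotic cells, is known as a main site of miR2275 and DCL5 expression. The table counts precursor transcripts, not the small RNAs. The precursor rows chose the cells, so their levels are a description and carry no test.

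High cells spanned 1.04 to 11.9% 24PHAS UMIs, with a median of 2.44%. No gap marked the threshold: 6 cells lay between 1 and 1.2% and 8 between 0.8 and 1%, the nearest at 1.04% inside and at 0.990% outside. The 58 cells nevertheless held 2688 UMIs of these loci, 79.2% of those in all analysed cells of the 3 lengths. By length, 7 cells were high at 1.25 mm (4.79% of those analysed), 27 at 1.5 mm (20.3%) and 24 at 1.75 mm (17.0%). The sets were uneven as well: 48 of the 58 high cells came from set 8.18.21, where they were 17.5% of the analysed cells, while set 3.29.22 and set 1.4.21 gave 5 each, 7.58 and 6.33% of theirs. Number 1 of set 8.18.21 alone gave 18 high cells at 1.75 mm and 13 at 1.5 mm. High cells had a median of 1142.5 UMIs and comparison cells of 981. A cell with few UMIs is likelier to show 0 for these loci by counting alone, so depth was not tested between the classes.

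**Figure D1:**
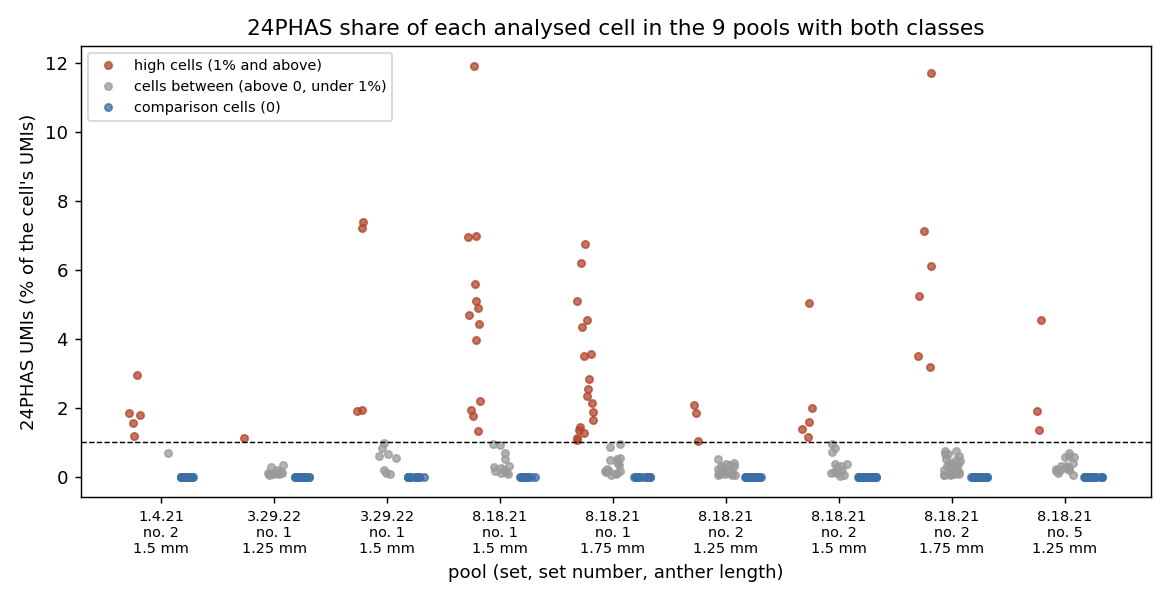
Share of each analysed cell's UMIs that came from 24PHAS loci (y axis, percent) in the 9 pools with both classes (x axis). Each point is a cell, the dashed line is the 1% threshold, and high cells run on from the cells between without a gap up to 11.9%.

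The precursor content was spread over many loci. Of 75 24PHAS rows, 74 had a UMI in high cells, and a high cell held UMIs of 2 to 55 loci with a median of 18. A few rows carried a large part of them: the top 5 made up 40.6% and the top 10 55.5% of the precursor UMIs. The locus 24PHAS_NO180 gave 10.2% of them, in 49 of the 58 cells. The locus 24PHAS_NO298 gave 9.71%, in 53 cells, the most cells of any of these 5 rows. The row joining loci NO187 and NO188 gave 8.59%, in 50 cells, followed by 24PHAS_NO15 with 6.29% and 24PHAS_NO296 with 5.84%. These leading loci were thus found in most high cells. Their shares were not the same at every length: 24PHAS_NO298 made up 16.3% of the precursor UMIs at 1.25 mm, 11.1% at 1.5 mm and 7.63% at 1.75 mm, whereas 24PHAS_NO180 made up 4.81, 10.5 and 10.7%. The 1.25 mm values rest on 7 cells.

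The transcript of zma-MIR2275c, a precursor of the microRNA that triggers phasiRNA production from these loci, was not used to choose the cells. It had 30 UMIs in high cells, found in 12 of 58, and 3 UMIs in comparison cells, found in 2 of 170. In CPM (UMIs of a row per 1000000 UMIs outside the PHAS loci in the same sum), its level ran from 0 to 3504 CPM in high cells with a median of 324.5 CPM, and from 0 to 74.6 CPM in comparison cells with a median of 0 CPM. High cells were above comparison cells in 8 of 9 pools, and the ranges overlapped: the pool with a single high cell had 0 CPM in it, and 1 other pool of high cells had 32.6 CPM. The pooled ratio was 22.5, with a counting interval of 7.01 to 115.4. The log2 fold change was 4.39 (SE 0.96, adjusted p = 0.000236, from edgeR's quasi-likelihood test on the sums with the pool as a block and Benjamini-Hochberg adjustment). One pool, number 1 of set 3.29.22 at 1.5 mm, gave 13 of the 30 UMIs, 9 of them in a single cell. Without it the pooled ratio was 12.1 (counting interval 3.49 to 64.3), on 17 and 3 UMIs, too few for the row to stay in the fit. The row also left the fit without number 5 of set 8.18.21 (pooled ratio 26.1), and without number 1 of set 3.29.22 at 1.25 mm the ratio was 59.1. At an equal depth of 400 UMIs a cell, the microRNA precursor was expected in 11.9% of high cells and 0.694% of comparison cells; as counted, at medians of 1109 and 920.5 UMIs outside the PHAS loci, the shares were 20.7 and 1.18%. SGS3, which acts in the same pathway, was found in 25 of 58 high cells and 69 of 170 comparison cells. Its level was 201.6 to 1617 CPM in high cells and 261.9 to 917.7 CPM in comparison cells (log2 fold change 0.04, SE 0.40, adjusted p = 0.958), and the interval of the pooled ratio was 0.699 to 1.44. The other symbols searched (RDR6, DCL5, DCL3B, AGO18A, AGO18B, LBL1 and RGD2) named no row. Rows with only a gene ID may still include some of these genes. LBL1 is another name for SGS3, and DCL3B an earlier one for DCL5.

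Outside the PHAS loci, 446 of 21947 rows had enough UMIs in the 18 sums to be tested. Of these, 230 (51.6%) passed an adjusted p of 0.05, 24.9% higher and 26.7% lower in high cells. This near-even split held for the filtered rows. Rows higher in high cells were 48.3% of these calls, but 29.2% of the calls of a fit with no filter on low counts. The median log2 fold change of that fit was -0.66. The median log2 fold change of all 446 rows was 0.17, and it was 0.32 with RLE size factors and 0.48 when the totals of the tested rows alone were used for scaling; under the last of these 140 rows were called higher and 98 lower. Rows called higher ranged from 0.84 to 7.28 on the log2 scale (median 2.80), and rows called lower from -3.82 to -0.83 (median -1.76). The rows called higher together took 6.69 to 13.3% of the UMIs of a pool in high cells and 0.717 to 1.99% in comparison cells. The rows called lower took 6.00 to 12.2% in high cells and 15.3 to 31.5% in comparison cells. Most of these rows carry only a gene ID of the v4 annotation: only 4 of those called higher and 18 of those called lower had a symbol or microRNA name in the table.

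**Figure D2:**
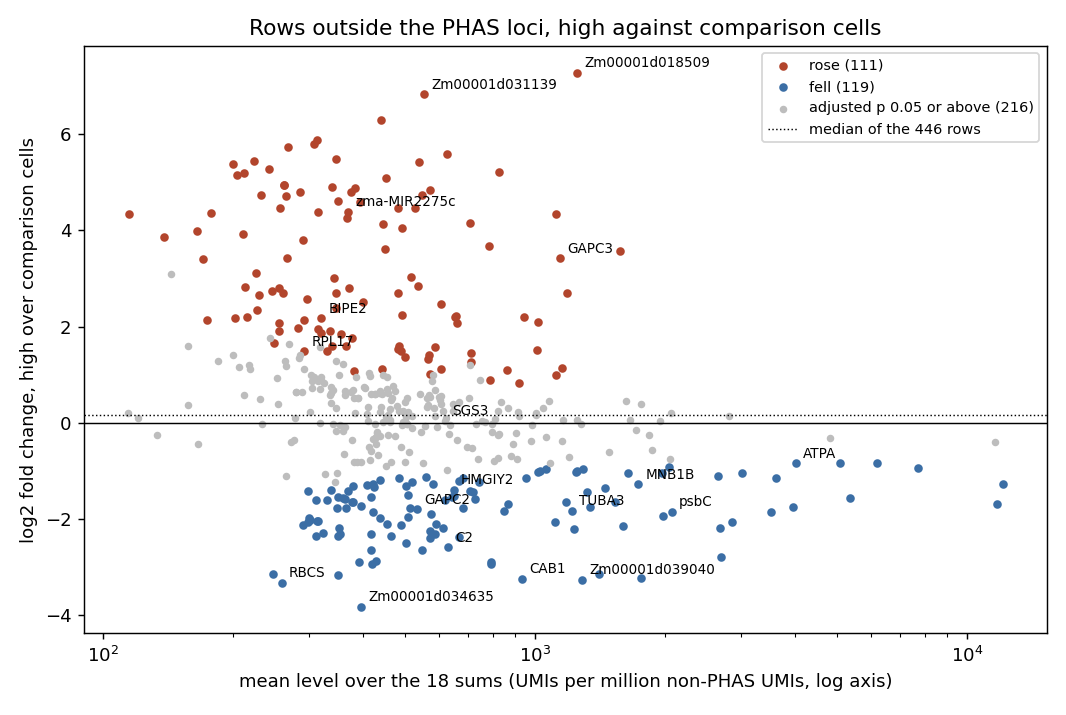
Log2 fold change of high over comparison cells (y axis) against the mean level over the 18 sums (x axis, log scale) for the 446 rows tested. Red rows rose, blue rows fell and grey rows had an adjusted p of 0.05 or above; the dotted line is the median of 0.17, and the rows that rose reach 7.28 while none that fell passes -3.82.

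The row that best set the high cells apart had no symbol. Zm00001d018509 was found in 52 of 58 high cells, and gave 1 UMI in 170 comparison cells. Its level was 973.6 to 5027 CPM over the 9 pools of high cells (median 2382) and 0 CPM in 8 of 9 pools of comparison cells, with 50.0 CPM in the remaining pool. The ranges did not overlap. The pooled ratio was 469 (counting interval 83.2 to 18600), and the adjusted p was 2.57e-13 by edgeR's quasi-likelihood test. Zm00001d031139 gave 98 UMIs in 34 high cells and 0 in comparison cells, at least 73.6-fold higher when 3 UMIs over all comparison sums are taken as the limit. It was present in 8 of 9 pools of high cells, up to 2648 CPM (adjusted p = 8.18e-09 by the same test). With 0 comparison UMIs the row passed the filter through high cells alone, so only a rise could be called for it. Zm00001d018509, with 1 comparison UMI, likewise entered through the high cells. The p-values of these 2 rows are therefore no independent support. Over the 446 rows, 14 (3.14%) had ranges that did not overlap between the classes, 8 of them higher and 6 lower in high cells. The files and the reference table do not say what these genes encode. The comparison cells hold no 24PHAS UMI by definition; against all cells under 1%, the log2 fold changes were 2.78 for Zm00001d018509, 3.22 for Zm00001d031139 and 2.25 for zma-MIR2275c, each still past the test.

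Of the 38 tested rows with a symbol or microRNA name, 4 rose (10.5%) and 18 fell (47.4%), where 24.9% of all tested rows rose and 26.7% fell. Besides the microRNA precursor, the clearest rise was in GAPC3, a cytosolic glyceraldehyde-3-phosphate dehydrogenase of glycolysis. GAPC3 had 521.1 to 5405 CPM in high cells (median 1348) and 0 to 1032 CPM in comparison cells (median 52.4), higher in all 9 pools with a log2 fold change of 3.42 (SE 0.51, adjusted p = 8.34e-07, edgeR), or 1.42 against all cells under 1%. It was found in 43 of 58 high cells and 16 of 170 comparison cells. Its paralog GAPC2 differed in the opposite direction, with 0 to 1005 CPM in high cells (median 227.98) and 597.5 to 1048 CPM in comparison cells (median 758.1), a log2 fold change of -1.80 (SE 0.46, adjusted p = 0.00134, edgeR). How reads shared by related genes were counted is not stated, so the levels of these 2 genes are less certain, as may be those of other related genes. Zm00001d020480 and Zm00001d020484, both called higher, had the same values throughout (63 UMIs in high cells and 1 in comparison cells). The calls are thus not all independent of each other. BIPE2, a BiP chaperone of the endoplasmic reticulum, had a median of 618.8 CPM in high cells and 149.1 CPM in comparison cells and was higher in 7 of 9 pools (log2 fold change 2.17, SE 0.59, adjusted p = 0.00246, edgeR). Without number 1 of set 8.18.21 its log2 fold change was 1.49 and its adjusted p 0.107. With no filter on low counts the call of BIPE2 was also lost (adjusted p = 0.534, edgeR). RPL17, a ribosomal protein gene, had medians of 575.6 CPM in high cells and 104.8 CPM in comparison cells (log2 fold change 1.48, SE 0.58, adjusted p = 0.0303, edgeR). Its call was lost without any one of 3 pools of set 8.18.21 (number 1 or number 2 at 1.5 mm, number 2 at 1.75 mm), with log2 fold changes of 1.05 to 1.94 over the pools left out. Over all alternatives RPL17 lost its call in 7 of 17, with adjusted p-values of up to 0.922 (edgeR). Against all cells under 1% its log2 fold change was 0.54. The other tested gene on the ribosomal protein list, RPS4, had a log2 fold change of 0.68 (adjusted p = 0.251, edgeR).

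**Figure D3:**
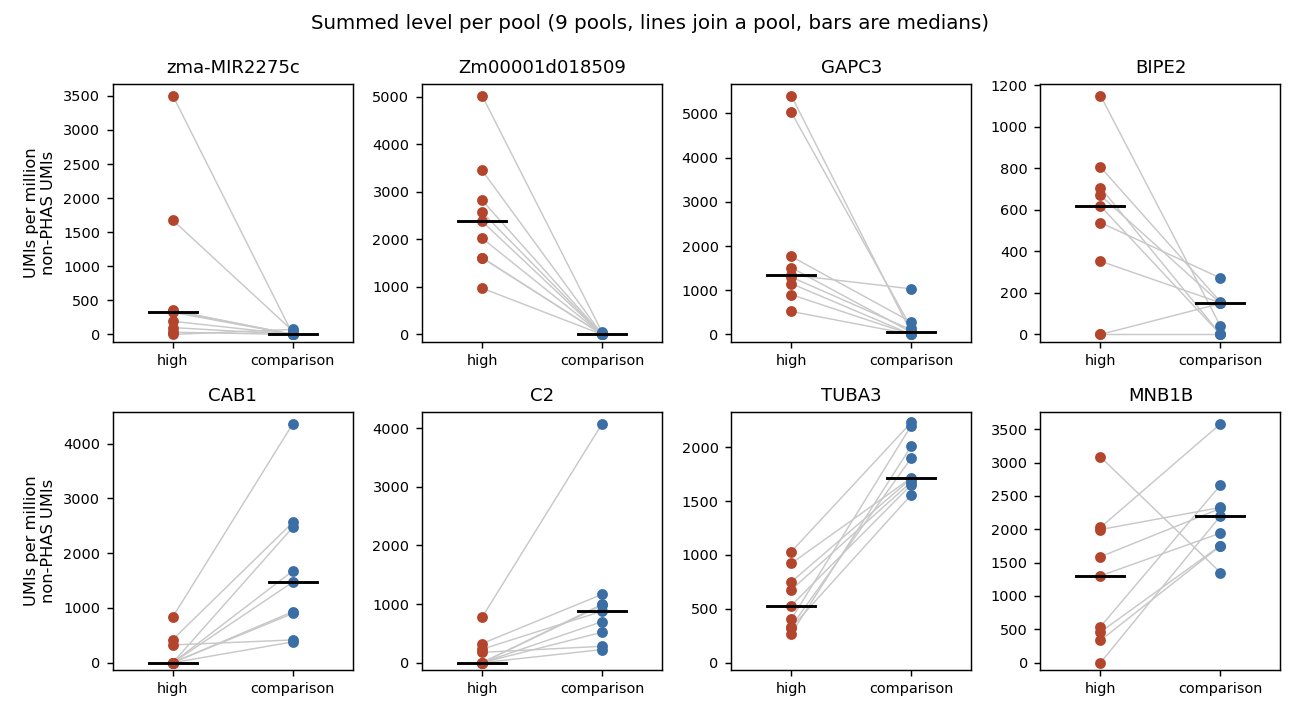
Level of 8 transcripts in the summed high cells (left, red) and comparison cells (right, blue) of each of 9 pools, in CPM of the UMIs outside the PHAS loci. Lines join the classes of a pool and bars are medians; Zm00001d018509 and TUBA3 separate the classes without overlap.

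The nuclear photosynthesis genes CAB1 and RBCS fell in high cells. CAB1, a chlorophyll a/b binding protein, was at 0 in 6 of 9 pools of high cells and reached 836.8 CPM in the highest, while comparison cells ran from 380.2 to 4363 CPM (median 1473). It was lower in high cells in all 9 pools, with a log2 fold change of -3.24 (SE 0.50, adjusted p = 1.62e-06, edgeR). RBCS, the small subunit of Rubisco, was also at 0 in 6 pools of high cells and had a median of 228.6 and a maximum of 1310 CPM in comparison cells (log2 fold change -3.33, SE 0.69). Both tested members of the 5 listed genes fell, with a median log2 fold change of -3.29, where 26.7% of all tested rows fell and their median was 0.17. The other 3 had too few UMIs to be tested: summed over the pools, PSAH stood at 58.9 CPM in high cells and 41.8 CPM in comparison cells (5 and 8 UMIs), PSBQ1 at 117.9 and 235.4 CPM, and FDX3 at 70.7 and 135.99 CPM. C2, a chalcone synthase, which makes the first flavonoid skeleton, had 0 to 772.4 CPM in high cells and 223.7 to 4072 CPM in comparison cells (log2 fold change -2.59, SE 0.49, adjusted p = 3.47e-05, edgeR). These 3 transcripts were carried by a minority of comparison cells: 51 of 170 held a UMI of CAB1, 25 of RBCS and 26 of C2, against 7, 4 and 10 of 58 high cells. For C2 these shares of cells do not follow its level, and no order is read from them.

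RBCS, CAB1, PSAH and PSBQ1 also served as markers of chlorophyll-bearing wall cells, so the comparison cells include cells that carry them. All 4 markers had UMIs in both classes, in 8 of 58 high cells and 55 of 170 comparison cells, and their summed level was 0 to 1416 CPM over the pools of high cells and 623.3 to 6011 CPM over those of comparison cells. Most of that level was CAB1, at 329.99 CPM over all high cells and 1506 CPM over all comparison cells of these pools. When comparison cells with any UMI of these 4 genes or of C2 were left out, 78 rows were called (40.4% of those tested), 77 of them among the 230 (33.5% of those), all 77 with the same sign. The calls of 3 named plastid genes were lost in that comparison (psbC, ycf70 and cemA).

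Among plastid-encoded transcripts, 8 of 14 tested fell (57.1%) and 0 rose, with a median log2 fold change of -0.92; of all tested rows 26.7% fell and 24.9% rose, with a median of 0.17. The psbC transcript, for a core antenna protein of photosystem II, had 269.5 to 1480 CPM in high cells and 1380 to 5290 CPM in comparison cells (log2 fold change -1.85, SE 0.31, adjusted p = 6.17e-06, edgeR). Against the comparison cells without photosynthesis or C2 UMIs, its log2 fold change was -0.67, that of ycf70, a plastid reading frame, was -0.12 in place of -1.69, and that of cemA, an envelope membrane protein, was -0.32 in place of -1.15. The fourth named, rpoC1, a subunit of the plastid RNA polymerase, had a log2 fold change of -1.16 (SE 0.45, adjusted p = 0.0296, edgeR). It lost its call without any one of 4 pools (number 2 of set 1.4.21, number 1 of set 8.18.21 at 1.75 mm, number 2 at 1.25 mm or number 5), with adjusted p-values of up to 0.0800. Over all alternatives rpoC1 lost its call in 10 of 24, with adjusted p-values of up to 0.246 (edgeR). How well this method captures plastid RNA was not tested. ATPA, a subunit of ATP synthase on the mitochondrial list, fell slightly, by 0.85 on the log2 scale (SE 0.27, adjusted p = 0.00917, edgeR); without the pool as a block it was not called, with a log2 fold change of -0.06, or of -0.73 on the rows of the paired fit.

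The alpha-tubulin gene TUBA3 and a pair of chromatin genes also fell. TUBA3, an alpha-tubulin, had 269.5 to 1030 CPM in high cells and 1558 to 2230 CPM in comparison cells, ranges that did not overlap (log2 fold change -1.83, SE 0.36, adjusted p = 5.95e-05, edgeR). TUBA1, a second alpha-tubulin, had a log2 fold change of -0.85 (adjusted p = 0.0585, edgeR), and reads common to tubulin genes may be split between them. It passed without any one of 4 pools of set 8.18.21 (number 1 or 2 at 1.5 mm, number 1 or 2 at 1.75 mm), with log2 fold changes of -1.44 to -0.97, and with DESeq2. Of 12 listed genes of chromatin and DNA replication, 2 had enough UMIs to be tested and both fell, where 26.7% of all tested rows did. HMGIY2, an HMG-I/Y chromatin protein, had 0 to 836.8 CPM in high cells and 597.5 to 1357 CPM in comparison cells, lower in all 9 pools (log2 fold change -1.39, SE 0.42, adjusted p = 0.00561, edgeR). MNB1B, an HMG box protein that binds DNA, had 0 to 3083 CPM in high cells (median 1303) and 1351 to 3580 CPM in comparison cells (median 2200), with a log2 fold change of -1.28 (SE 0.40, adjusted p = 0.00775, edgeR). Among cells with at least 1000 UMIs neither call held, and the same was so for high cells defined at 0.5% in place of 1%. Without the pool as a block, where a stricter filter left 91 rows, neither was called, with log2 fold changes of -0.58 for HMGIY2 and -0.49 for MNB1B. Without the block but on the rows of the paired fit, both kept their calls. MNB1B also lost its call within set 8.18.21 and without the 1.25 mm pools. Summed over the markers of dividing cells (HMGIY2, FEN1 and MAD2), high cells had 0 to 965.5 CPM and comparison cells 597.5 to 1648 CPM.

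The remaining named genes that fell were SAMDC, an enzyme of polyamine synthesis, with medians of 352.98 CPM in high cells and 787.4 CPM in comparison cells (log2 fold change -1.32, SE 0.44, adjusted p = 0.0121, edgeR), and TIF. SAMDC lost its call without the 1.5 mm pools and with no filter on low counts (adjusted p up to 0.108). TIF had a log2 fold change of -1.41 (SE 0.55, adjusted p = 0.0289, edgeR) and lost its call in 10 of 19 alternatives, with adjusted p-values of up to 0.152. Among them were DESeq2, scaling by library totals, and leaving out number 2 of set 8.18.21 at 1.25 mm or number 5. Among rows without a symbol at a mean of 100 CPM or more, the largest falls were in Zm00001d034635 and Zm00001d039040. Zm00001d034635 had 0 to 269.5 CPM in high cells and 366.7 to 1648 CPM in comparison cells, with no overlap (log2 fold change -3.82, SE 0.62). Zm00001d039040 had 32 UMIs in high cells and 400 in comparison cells (log2 fold change -3.27, SE 0.49). Neither of the tested aquaporin genes passed: TIP1-1 had a log2 fold change of -0.81 (adjusted p = 0.300, edgeR) and SIP1-2 of 0.57 (adjusted p = 0.319, edgeR). Without number 1 of set 8.18.21 at 1.5 mm TIP1-1 passed (log2 fold change -1.61, adjusted p = 0.0449, edgeR), and with high cells at 2% and above it was -4.60.

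Markers of the cell types that might carry the 24PHAS transcripts were mostly out of reach. None of 8 tapetum markers had a row, so the table gives no check of the high cells against the tapetum. Of 8 meiotic markers only RAD51B had a row under its symbol, with 1 UMI in high cells and 3 in comparison cells. Of 3 epidermal markers only CR4 did, with 1 and 4 UMIs. At these counts no difference in either marker was detectable, and the high cells are therefore named by their 24PHAS content alone.

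The high class was also not uniform. With rising 24PHAS share, Zm00001d018509 stood at 23.3 CPM in cells with 0, 306.4 CPM in cells above 0 and under 0.5%, 672.4 CPM from 0.5 to 1%, 1461 CPM from 1 to 2%, 3165 CPM from 2 to 5% and 4134 CPM in cells at 5% and above. Zm00001d031139 followed the same order, at 0, 76.6, 249.8, 388.1, 1696 and 2480 CPM. The zma-MIR2275c precursor did not climb band by band, at 9.97, 241.6, 96.1, 114.2, 226.1 and 1309 CPM, and GAPC3 was at 242.6, 689.4, 941.4, 1119, 1130 and 1516 CPM. Both were thus also present below the 1% threshold. CAB1 was at 1110, 1025, 576.4 and 639.3 CPM in the first 4 of these bands, and had 0 UMIs in both bands above 2%. MNB1B was at 1964 CPM from 1 to 2%, 716.0 CPM from 2 to 5% and 275.6 CPM at 5% and above, and was thus below its 1887 CPM in cells with no 24PHAS UMI in the last 2 bands, but not from 1 to 2%. These are sums over cells of all 14 pools and of unequal depth, with no test.

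Cells of the high class differed on either side of 2%. The 34 high cells at 2% and above held 0 UMIs of RBCS, CAB1, PSAH and PSBQ1 among 41053 UMIs, which allows a level of up to 73.1 CPM for each, and 3 UMIs of C2. The 24 high cells from 1 to 2% held 48 UMIs of the 4 photosynthesis genes and 22 of C2 among 43798. CAB1 gave 28 of those UMIs, in 7 cells. Number 1 of set 8.18.21 held 13 of them at 1.5 mm and 13 at 1.75 mm, so the contrast rests on few cells, mostly of that set number. Zm00001d018509 was found in 33 of 34 cells at 2% and above and in 19 of 24 below. With the threshold at 2% in place of 1%, 48.0% of 454 tested rows were called, and the calls shared with the 1% threshold were 80.3% of these and 76.1% of the 230. In that comparison SGS3 had a log2 fold change of -1.69 (adjusted p = 0.00949, edgeR).

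**Figure D4:**
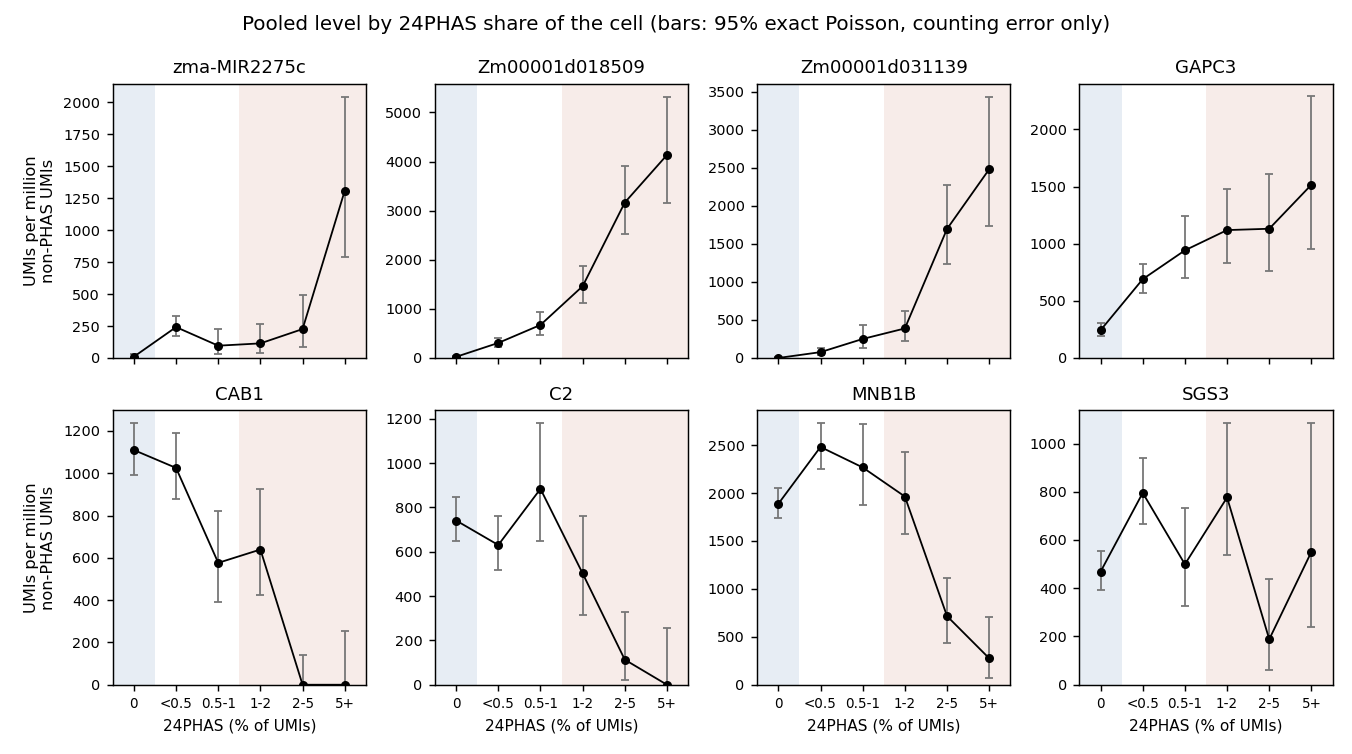
Pooled level of 8 transcripts (y axis, CPM of the UMIs outside the PHAS loci) in 6 bands of a cell's 24PHAS share (x axis, percent of UMIs), with 95% exact Poisson intervals for counting error only. Blue shading marks the comparison cells and red the high cells; Zm00001d018509 climbs to 4134 CPM in the last band, where CAB1 has 0 UMIs.

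Across lengths, Zm00001d018509 was at 3356 CPM in high cells and 11.6 CPM in comparison cells at 1.25 mm, at 1840 and 0 CPM at 1.5 mm, and at 2767 and 0 CPM at 1.75 mm. The zma-MIR2275c precursor was at 691.0 CPM in high cells and 34.8 CPM in comparison cells at 1.25 mm, at 537.8 and 0 CPM at 1.5 mm, and at 101.5 and 0 CPM at 1.75 mm. GAPC3 was at 3258, 1189 and 660.0 CPM in high cells of the 3 lengths and at 174.04, 328.03 and 0 CPM in comparison cells. Whether the difference between the classes itself changed with length was tested by the class-by-length terms of the same model, and 0 of 446 rows passed (0%) with edgeR's quasi-likelihood test, 22 at an unadjusted p under 0.05. DESeq2 also called 0, with 17 at an unadjusted p under 0.05. The smallest adjusted p was 0.411, for TIP1-1, so no change with length was detectable with 3, 4 and 2 pools a length.

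At equal depth, high cells showed slightly more different genes. In 400 UMIs outside the PHAS loci, 349.9 ± 15.4 genes were expected in high cells and 334.9 ± 18.3 in comparison cells (mean ± SD of pool medians, n = 9), a difference of 15.0 ± 14.8 (two-sided exact sign-flip permutation test over pools, p = 0.0117). The difference was positive in 8 of 9 pools, from 3.49 in a pool with 1 high cell to 44.6 in number 1 of set 8.18.21 at 1.5 mm, and was -3.51 in set 1.4.21. At 1000 UMIs it was 44.9 (exact p = 0.0547), with 6 of 9 pools positive.

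Most high cells came from 1 set. Within set 8.18.21, which held 6 of the 9 pools, 55.0% of the tested rows were called. The 3 pools of the other sets held 10 high cells, and there edgeR called 0 rows, with 63 (30.7% of those tested) at an unadjusted p under 0.05. Of the calls made within set 8.18.21, 79 could be tested in the other sets, which share no cells with it, and 78 had the same sign: 20 of 21 that rose and 58 of 58 that fell, with median log2 fold changes of 2.10 and -2.44 there. The median of all rows tested there was -0.40, so a fall was the more common sign there in any case. Only 21 of the 95 rows that rose could be tested, against 58 of the 82 that fell. Rows rare in comparison cells passed the filter there only through the high cells, which favored a rise among the 21. Their shared sign is therefore partly set by the filter. The 95 rows called higher within set 8.18.21 made up 5.60, 4.80 and 9.11% of the UMIs of high cells in those 3 pools, and 1.23, 1.46 and 1.41% of the UMIs of comparison cells. The 82 called lower made up 5.63, 5.74 and 6.33% in high cells, and 20.4, 12.1 and 15.2% in comparison cells. All 3 pools thus lay on the same side as set 8.18.21 for both groups of rows.

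Well numbers were checked for recurrence, since 93 of the 95 well numbers in use occurred in at least 2 pools. The 58 high cells occupied 46 well numbers: 36 were held by a high cell of 1 pool, 8 by high cells of 2 pools and 2 by high cells of 3 pools, which placed 22 high cells in recurring wells. Among all pairs of high cells from different pools, 14 of 1375 (1.02%) shared a well number, against 1.34% of 12716 pairs of comparison cells and 2.36% of 7459 pairs of the cells between. Number 1 of set 8.18.21 held 5 of the recurring wells, in its 1.5 and 1.75 mm pools. Turned round, the 250 cells of other pools in the wells of high cells were high in 11.2% of cases, where the shares of their pools gave 14.6%. The same cells were comparison cells in 42.0% of cases, where those shares gave 48.9%. They thus held precursor UMIs below the threshold more often than the pool shares gave. Wells thus recurred at that lower content. Wells 6, 23, 37, 45, 46, 47 and 70 each held precursor UMIs in every pool of set 8.18.21 at the 3 lengths. The cause of this recurrence was not tested. In expression, same-well pairs of high cells had a median correlation of 0.28 over the better-covered rows, pairs from other wells of other pools 0.15, and pairs within a pool 0.23, on the log scale and as a description of few and sparse counts.

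**Figure D5:**
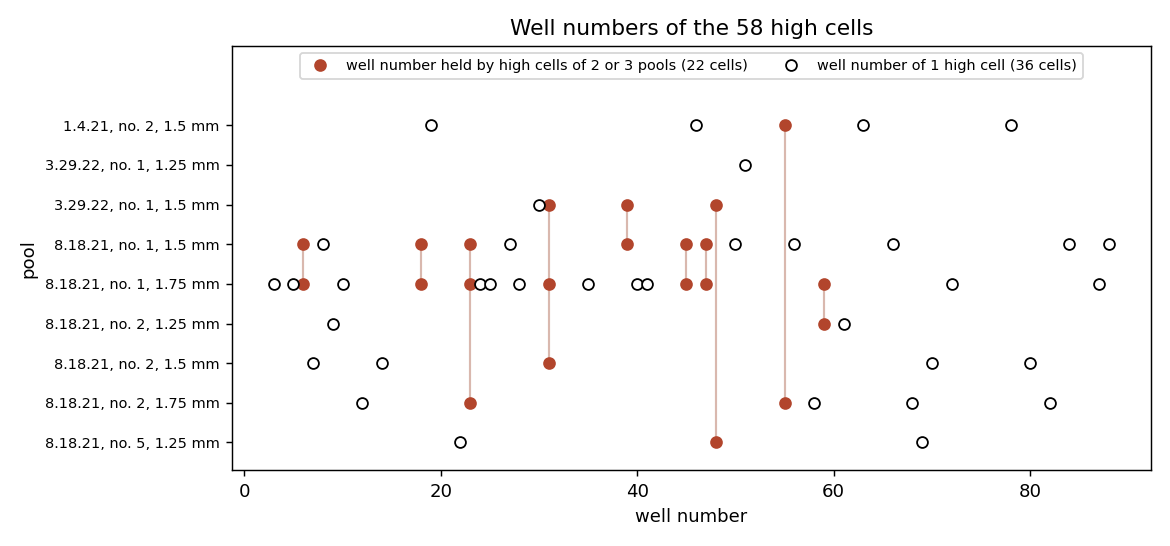
Well number (x axis) of each of the 58 high cells in its pool (y axis). Filled points joined by lines are the 22 cells whose well number recurs among high cells of 2 or 3 pools, and open points are the 36 others; 5 of the lines join the 1.5 and 1.75 mm pools of number 1 of set 8.18.21.

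Without the 22 high cells in recurring wells, 49.1% of 432 rows were called; the calls shared with all high cells were 82.5% of these and 76.1% of the 230, all with the same sign, and the difference in genes per 400 UMIs was 15.3 ± 13.3 (exact p = 0.00391, the smallest that 9 pools allow). High cells in wells that recurred only through cells under 1%, such as well 70, were kept, so recurrence at that content was not addressed. With only the 22 cells in recurring wells, 37.0% of the tested rows were called. CAB1 had a log2 fold change of -2.63 in that comparison, against -3.24 with all high cells, and HMGIY2 and MNB1B lost their calls.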

How the data were processed

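Per cell and row, UMI counts were taken as the authors deposited them, unnormalized whole numbers over 22173 rows; lengths, sets and wells were read from the cell titles. The submitters' processing notes name HISAT2 and the B73 RefGen_v4 build; the counting tool, any filter and the treatment of doublets are not stated there, and no doublet caller was run. The table's 1579 columns of other lengths were not used. The 226 PHAS rows (75 24PHAS, 151 21PHAS) were left out of sums and totals. Sums held 1480 to 30705 UMIs in high cells and 10315 to 39369 in comparison cells. These were fitted with edgeR 4.0.16 (TMM, filterByExpr, quasi-likelihood F-test, Benjamini-Hochberg over all tested rows at 0.05), with the pool as a block because both classes of a pool share its set, set number and length; deviations from class means correlated within every pool (0.08 to 0.33). SE is the fold change divided by the root of F. CPM values are without TMM factors, and intervals and floors (3 counts) cover counting error only. Genes at 400 UMIs are hypergeometric expectations per cell. DESeq2 1.42.0, other scalings, filters, thresholds and subsets of cells and pools were alternatives. The fit was tested on simulated data over the 446 rows, where it recovered 93% of changes of 2 log2 units and 100% of 3. For class-by-length terms it recovered 19.5 and 39.8%. With many of the tested rows changed, as in that simulation, TMM scaling shifted unchanged rows and some of them were called. The calls may thus include such rows in a larger share than the 0.05 set, and the recovered shares do not count them. The members and gene lists were chosen with earlier results of these data known. Named genes are symbols past the test with the 12 largest changes each way, zma-MIR2275c, SGS3, up to 4 members a list, and 2 IDs each way with the largest changes at a mean of 100 CPM or more. Symbols come from the table; no v4 gene ID matched the reference table, so IDs carry no names or sequences here.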

Additional observations from a re-analysis of the deposited data

Results flagged for a closer look

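Of 43 groups of 9 pool values checked (the levels of the named transcripts in each class and the difference in gene number), 8 held a pool far from the others, where chance gives about 1 in 20 for normally distributed values. Many of these levels are sparse counts with zeros, so that rate need not hold and no excess is read from it. Among high cells, zma-MIR2275c reached 3504 CPM in number 1 of set 3.29.22 at 1.5 mm (13 UMIs), CAB1 836.8 CPM (13 UMIs) and C2 772.4 CPM (12 UMIs) in number 1 of set 8.18.21 at 1.5 mm, and GAPC2 1005 CPM in number 5 of set 8.18.21 (3 UMIs). Among comparison cells, GAPC3 reached 1032 CPM in number 1 of set 3.29.22 at 1.5 mm (19 UMIs). In those of number 1 of set 8.18.21 at 1.5 mm C2 reached 4072 CPM (42 UMIs) and Zm00001d034635 1648 CPM (17 UMIs). The single UMI of Zm00001d018509 in comparison cells, 50.0 CPM, lay in number 5 of set 8.18.21, and with every other pool at 0 CPM any UMI would have been flagged.

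In cells outside the comparison, those with some 24PHAS UMIs but under 1%, zma-MIR2275c stood at 207.4 CPM, with 46 UMIs in 18 cells and at most 7 in 1 cell, above the 9.97 CPM of all comparison cells. The 21PHAS loci, a class known from shorter anthers and left out of the sums, gave 10 UMIs in 5 of the 58 high cells, 114.2 CPM of all their UMIs, where comparison cells had 13.3 CPM. Cells between the classes held 50 such UMIs, 224.7 CPM.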

How the results depend on the processing

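Of the 230 calls, every call tested kept its sign in each alternative fit, except 1 against comparison cells without photosynthesis or C2 UMIs, a choice made after the data were seen, which called 78 rows (40.4% of those tested). With 51.6% of rows called in the comparison reported, the number of calls was lower by over 1.5 times with cells of at least 1000 UMIs (47.3% of tested rows called), recurring wells alone (37.0%), without 1.5 mm (34.7%) and without set 8.18.21 (0%); each tested fewer cells and fewer rows. Leaving out each pool gave 39.6 to 55.8%. Without the replicate block 36.3% of the 91 rows passing its stricter filter were called, and 50.0% on the rows of the paired fit. DESeq2 called 53.8%, and a fit with no filter 1.55% of 17676 rows. With no filter, 29.2% of the calls were higher in high cells, against 48.3% in the comparison reported. The median log2 fold change was then -0.66, so the background shares and median given for the gene lists hold for the filtered rows only. For class-by-length terms 1 row was called within set 8.18.21, and 0 to 1 with each pool left out. The gene number difference was 11.3 to 17.3 with each pool left out and 44.9 at 1000 UMIs, no longer past 0.05 there. The cause of these changes was not tested. No called gene named above changed sign. Values with no call that did were SGS3 (-0.68 with no filter, -1.69 at 2%, -0.60 against all cells under 1%, -1.31 without recurring wells, -0.39 without 1.5 mm, -0.0059 without number 1 of set 8.18.21, -0.26 without photosynthesis or C2 UMIs, and -0.31 to 0.21 with each pool left out), TIP1-1 (0.065 at 0.5%, 0.26 without 1.25 mm), SIP1-2 (-0.15 with no filter) and RPS4 (-0.11 with no filter, -0.17 without recurring wells). Pools of few high cells limit the depth: 1 UMI is 675.7 CPM in the smallest.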
